A study of Mus musculus with 4 samples.

Results

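The Hoxb promoters were taken as the 10 protein-coding Hoxb genes, Hoxb1 to Hoxb9 and Hoxb13, and an interaction was counted for a gene when either of its paired 5-kb bins held a transcription start site (TSS) of that gene in the GENCODE M21 basic annotation. Of 237102 significant HiChIP interactions, 128 (0.0540%) met this rule, for 10 of 20720 autosomal protein-coding genes. HiChIP joins pieces of DNA that lie close together in the nucleus and pulls down those carrying a chosen chromatin feature, here H3K4me3, the trimethylated histone found at active promoters. The cells were bone marrow-derived macrophages (BMDMs) of C57BL/6J mice, grown for 7 days with M-CSF and then kept basal (2 samples) or given 20 ng/mL interleukin-4 for 24 h (2 samples). The values analysed come from 1 list for which the authors had pooled the 4 samples before calling. Basal and IL-4-treated BMDMs therefore cannot be told apart in any value below, and the values carry no replicate error and no depth per sample.

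Hox genes encode homeodomain transcription factors that set position along the body axis, and their order along the chromosome follows the order in which they are expressed from head to tail. The Hoxb genes of the middle of the cluster are also known from blood formation, where they act mainly in stem and progenitor cells and are generally lowered as myeloid cells mature. Promoters of Hox clusters are known to contact distant elements in flanking gene deserts and neighbouring genes, and which flank is contacted varies between tissues.

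In mm10 the cluster ran from 96190001 to 96370000 on chromosome 11, 180 kb in 36 bins, with Hoxb13 at the low end and Hoxb1 at the high end and all members on the plus strand. The 10 genes had 12 TSS bins, since Hoxb6 and Hoxb3 each had a TSS in 2 bins. RefSeq promoter sequences (GRCm38.p6) were matched for 3 of the 10 members, Hoxb8, Hoxb4 and Hoxb1. They are shown because Hoxb8 and Hoxb4 were among the most connected promoters of the cluster and Hoxb1 among the least. Each sequence is the 250 bases before the gene's start on the plus strand, 5′ to 3′, with capitals marking GATC, the site of the enzyme MboI that cut the chromatin before ligation.
Hoxb8, chr11:96281655-96281904: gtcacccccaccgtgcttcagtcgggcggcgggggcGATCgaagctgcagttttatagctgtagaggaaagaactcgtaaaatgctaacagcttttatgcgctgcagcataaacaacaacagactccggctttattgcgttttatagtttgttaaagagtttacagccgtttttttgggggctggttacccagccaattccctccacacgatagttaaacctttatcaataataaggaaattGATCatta
Hoxb4, chr11:96318017-96318266: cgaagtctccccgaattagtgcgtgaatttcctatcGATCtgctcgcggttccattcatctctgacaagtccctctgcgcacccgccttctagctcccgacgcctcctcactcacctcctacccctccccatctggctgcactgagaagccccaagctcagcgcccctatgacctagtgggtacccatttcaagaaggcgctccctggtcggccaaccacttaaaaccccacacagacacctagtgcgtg
Hoxb1, chr11:96365508-96365757: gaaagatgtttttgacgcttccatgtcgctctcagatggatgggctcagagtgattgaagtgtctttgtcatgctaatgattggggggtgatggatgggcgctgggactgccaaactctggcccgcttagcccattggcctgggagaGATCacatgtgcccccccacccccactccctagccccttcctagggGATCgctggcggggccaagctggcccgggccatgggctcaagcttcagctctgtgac
The windows of Hoxb8 and Hoxb1 held 2 GATC sites each and that of Hoxb4 held 1, and 41.9% of the 32851 promoters in the RefSeq table held at least 1 in a window of this length. The motif TGATNNAT, a site for HOX proteins bound with a cofactor, was searched on both strands and had 1 match before Hoxb8, where it overlapped the second GATC, 1 before Hoxb1 and 0 before Hoxb4, against 7.68% of all promoters with a match. Over whole 5-kb bins, the TSS bins of the members held 9 to 17 GATC sites with a median of 10, and all chromosome 11 bins had a median of 12.

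The contacts of the Hoxb promoters came almost entirely from 4 genes of the middle of the cluster and ran almost entirely in 1 direction. Hoxb4 had 50 interactions, Hoxb7 had 31, Hoxb8 had 24 and Hoxb6 had 17, together 122 of the 128. At least 1 interaction was found for 8 of the 10 members, against 63.2% of all protein-coding genes. The median over the 10 members was 2 interactions, equal to the median of 2 over all genes. The 4 leading members stood well above it, since 18.2% of all genes had at least 17 interactions. Hoxb4 ranked 595 of 20720 genes, Hoxb7 ranked 1617, Hoxb8 ranked 2457 and Hoxb6 ranked 3572. The remaining members together had 6 interactions. The lead of Hoxb4 did not hold at ratios of at least 4, where Hoxb7 had 12, Hoxb8 10 and Hoxb4 9. Nor did it hold when a TSS within 2500 bp of a bin counted, where Hoxb8 and Hoxb7 had 55 each and Hoxb4 53. Both values of 55 counted the same interactions, since the wider window gave each of Hoxb8 and Hoxb7 the other's TSS bin. For Hoxb4 it added the first TSS bin of Hoxb3.

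**Figure D1:**
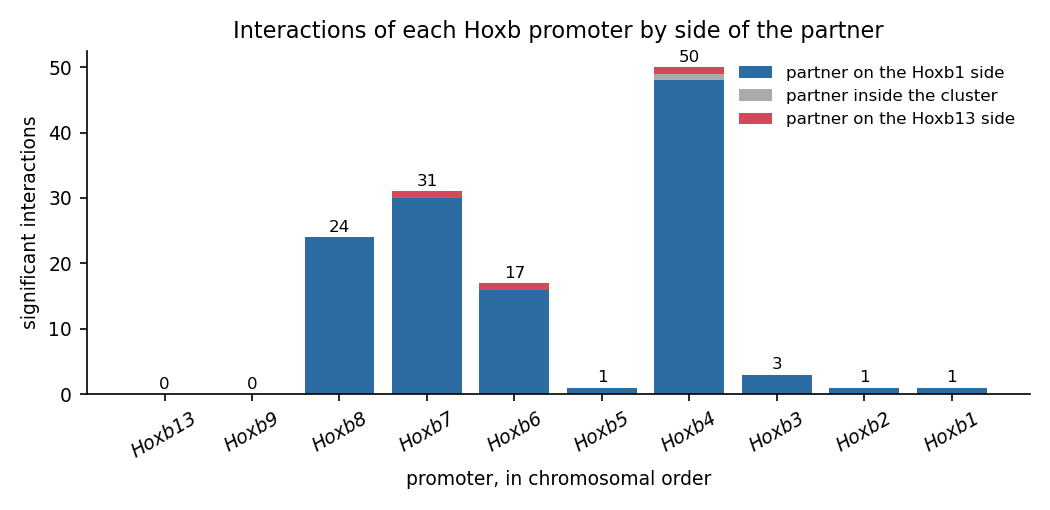
Number of significant interactions (vertical axis) of each Hoxb promoter in chromosomal order, with bar segments for partner bins beyond the Hoxb1 end, inside the cluster and beyond the Hoxb13 end. Hoxb4 stands highest at 50, and the blue segment makes up nearly the whole of every bar.

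Partner bins lay beyond the Hoxb1 end of the cluster in 124 of the 128 interactions (96.9%, exact 95% binomial interval 92.2 to 99.1%). Beyond the Hoxb13 end lay 3 (2.34%, 0.486 to 6.70%), and 1 stayed within the cluster (0.781%, 0.0198 to 4.28%). By paired reads the split was 4043, 68 and 278 of 4389. Such intervals hold counting error alone, and adjacent bin pairs are not independent. Among genes with at least 5 interactions, 42.8% had at least 80% of their partner bins on 1 side of their own promoter, and all 4 Hoxb genes that reached this number did so. The share on the leading side was 100% for Hoxb8, 96.8% for Hoxb7, 94.1% for Hoxb6 and 98% for Hoxb4. Among the 3771 genes with at least 17 interactions, 35.5% met the same limit.

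The list holds only pairs that the authors' caller found enriched. The lowest ratio of observed to expected paired reads in it was 2, the lowest count 5, and distances ran from 10 kb to 1 Mb. Within this list the Hoxb interactions were of ordinary strength and long range. The median ratio was 3.13 for Hoxb and 3.11 for the list, and the median count was 23 paired reads against 27, with distances not matched. A ratio of at least 4 was found in 37 of the 128 (28.9%), against 27% of all listed interactions. The median distance was 277.5 kb, with quartiles of 193.75 and 471.25 kb, against 185 kb in the list. Distances of 200 to 300 kb held 29.7% of Hoxb interactions and 15.0% of all, and distances up to 100 kb held 11 of 128 and 71103 of 237102. The 128 bin pairs belonged to 19 clusters of neighbouring pairs and reached 83 different partner bins.

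Hoxb4, known for expanding blood stem cells when its level is raised, was the most connected member. Its TSS bin, 96315001 to 96320000, also held Mir10a, the gene of the microRNA miR-10a. The mature 5p strand of this microRNA, whose seed (bases 2 to 8) is in capitals, reads as follows and is shown because reads in this bin cannot be assigned to the gene or to the microRNA.
mmu-miR-10a-5p: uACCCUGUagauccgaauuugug
The 50 interactions of Hoxb4 fell in 11 clusters and summed to 2712 paired reads (exact 95% Poisson interval 2611 to 2816) where the model expected 892. Of these interactions, 48 had their partner beyond Hoxb1. The median count was 39, over a range of 10 to 278, and the median ratio 2.83, over a range of 2.06 to 7.40. Hoxb4 thus had the most reads of the members and, among the 4 leading genes, the lowest median ratio.

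The highest count beyond the cluster joined Hoxb4 to an intergenic bin at 96410001 to 96415000, 95 kb away, with 211 paired reads (183 to 241) against 40.0 expected, a ratio of 5.27 (4.58 to 6.03, authors' FDR 5.70e-78). The next 4 counts of Hoxb4 on that side, 139, 136, 112 and 99 paired reads, all lay in the same gap between Hoxb1 and Skap1, at ratios of 3.09, 3.19, 3.35 and 3.45. By ratio the leading partner of Hoxb4 was a bin over an exon of Skap1 at 96540001 to 96545000, 225 kb away, with 97 paired reads and a ratio of 7.40 (6.00 to 9.02).

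Hoxb8 is known for holding myeloid progenitors in an immature, dividing state when its expression is forced. Its 24 interactions lay without exception beyond Hoxb1, at distances of 120 to 675 kb. They summed to 566 paired reads (520 to 615) against 145 expected, with ratios from 2.24 to 9.72 and a median of 3.56. The highest ratio of any Hoxb promoter joined Hoxb8 to a bin over an exon of Cbx1, which encodes a heterochromatin protein, at 96800001 to 96805000, 520 kb away. It had 34 paired reads (23.5 to 47.5) against 3.50 expected, a ratio of 9.72 (6.73 to 13.6, authors' FDR 3.88e-21). The second, within an intron of Skap1 at 96550001 to 96555000, had 56 paired reads and a ratio of 7.85 (5.93 to 10.2), and the 2 intervals overlapped.

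Hoxb7, a central Hoxb gene next to Hoxb8, had 31 interactions in 9 clusters, with 626 paired reads (578 to 677) against 163 expected. Its median ratio of 3.83 was the highest of the 4 leading genes, with a range of 2.42 to 7.61. The leading partner lay within an intron of Skap1 at 96555001 to 96560000, 270 kb away, with 49 paired reads and a ratio of 7.61 (5.63 to 10.1). Hoxb7 also had the longest Hoxb interaction, 995 kb to a TSS bin of Npepps, which encodes an aminopeptidase, with 14 paired reads and a ratio of 4.96 (2.71 to 8.33).

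Hoxb6, a gene known from early blood progenitors, had 17 interactions, all from its bin at 96295001 to 96300000, with 384 paired reads (347 to 424) against 111 expected. Its other TSS bin, 96290001 to 96295000, had 0. Its median ratio was 3.36, over a range of 2.16 to 5.59, and 13 of the 17 partners lay over Skap1. Partner bins over Skap1 numbered 17 of 24 for Hoxb8, 18 of 31 for Hoxb7 and 21 of 50 for Hoxb4.

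**Figure D2:**
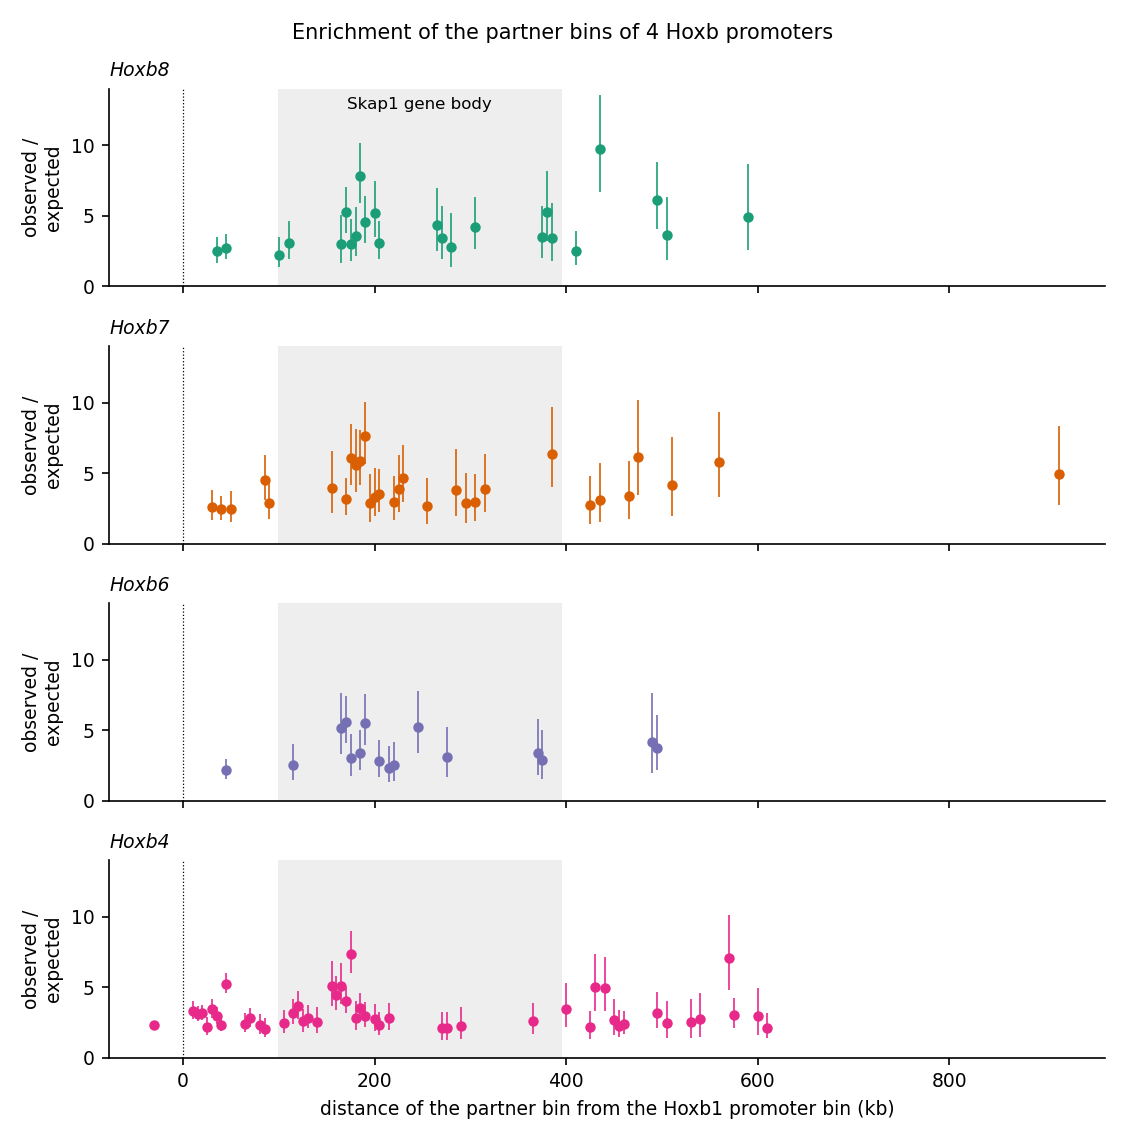
Ratio of observed to expected paired reads (vertical axes) against the distance of the partner bin from the Hoxb1 promoter bin in kb (horizontal axis), for Hoxb8, Hoxb7, Hoxb6 and Hoxb4; bars are 95% exact Poisson intervals, grey shading is the Skap1 gene body, the dotted line is the Hoxb1 bin, and the 3 partners beyond Hoxb13 are not drawn. All 4 promoters have partners within Skap1, Hoxb4 also has many in the gap before it, and the highest point is Hoxb8 with Cbx1 at 9.72.

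Hoxb5 and the genes of the Hoxb1 end had few contacts. Hoxb5, known as a marker of blood stem cells, had 1 interaction, with 17 paired reads (9.90 to 27.2) against 3.66 expected, 665 kb from a TSS bin of Sp2. Hoxb3 had 3, all from its first TSS bin at 96320001 to 96325000, with 10, 23 and 34 paired reads at ratios of 2.12 to 2.94. Hoxb2 had 1 of 9 paired reads with another TSS bin of Sp2, 630 kb away, at a ratio of 3.70. Hoxb1, which patterns the hindbrain, had 1 of 8 paired reads at a ratio of 3.60, with an intergenic bin 620 kb away.

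At the other end, Hoxb13, best known from prostate and hindgut, and Hoxb9, known from the thoracic skeleton, had 0 listed interactions. The caller required an H3K4me3 peak in at least 1 bin of a pair, and the peaks were not analysed here, so a promoter without the mark and a marked promoter without enriched contacts cannot be told apart. No listed interaction joined TSS bins of 2 Hoxb genes. The shortest distance in the list was 10 kb, so adjoining TSS bins, such as those of Hoxb8 and Hoxb7, were below its range.

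The 124 interactions beyond Hoxb1 fell into 3 stretches, given here as shares of all 128. The gap of 96.3 kb between Hoxb1 and Skap1 held 22 interactions (17.2%) in 14 bins, with 1458 paired reads and a median ratio of 2.57. The body of Skap1, at 96464593 to 96759130, held 70 (54.7%) in 39 of its 60 bins, with 1980 paired reads and a median ratio of 3.34. Beyond Skap1 lay 32 (25%) in 26 bins, with 605 paired reads and a median ratio of 3.54. Skap1 encodes an adaptor protein of T cell receptor signalling, and its own promoter had 0 interactions. The Skap1 contacts were thus ones of its gene body with Hoxb promoters, at up to 97 paired reads and ratios of up to 7.85.

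By annotation, the partner bin was intronic in 63 of the 128 interactions (49.2%), overlapped an exon in 26 (20.3%), was intergenic in 29 (22.7%) and held a TSS of another protein-coding gene in 10 (7.81%). After Skap1, the gene bodies most often overlapped were Cbx1 with 6 interactions, Sp2 with 5, Copz2, a coat protein gene of vesicle transport, with 4, and Nfe2l1 with 3. Sp2, which encodes a zinc finger transcription factor, had 4 of the 10 interactions with a TSS, with Hoxb4 at 14 and 24 paired reads, Hoxb5 at 17 and Hoxb2 at 9. Nfe2l1, a transcription factor gene of the proteasome stress response, had 2, both with Hoxb4, at 24 and 38 paired reads and ratios of 2.27 and 2.41.

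Snx11, Prr15l and Npepps had 1 interaction each. Snx11, a sorting nexin gene, was paired with Hoxb8 at 18 paired reads and a ratio of 2.50 (1.48 to 3.96). Prr15l was paired with Hoxb7 at 16 paired reads and a ratio of 5.76 (3.29 to 9.35), and Npepps with Hoxb7 as above. Of these promoter partners, Prr15l alone had an interval whose lower bound was above 3.

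The leading Hoxb promoters reached in part the same bins. Of the 83 partner bins, 56 were reached by 1 member, 16 by 2, 4 by 3 and 7 by 4. Hoxb8 and Hoxb4 shared 13 bins, which were 54.2% of the 24 of Hoxb8 and 26% of the 50 of Hoxb4. Hoxb7 and Hoxb4 shared 12 (38.7% and 24%), and Hoxb6 and Hoxb4 shared 11 (64.7% and 22%). Hoxb8 and Hoxb7, whose TSS bins adjoin, shared 10 (41.7% and 32.3%). All 3 partner bins of Hoxb3 were also partners of Hoxb4 and of Hoxb8, and none of them was a partner of Hoxb7.

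Of the 7 bins reached by 4 members, 1 was the intergenic bin at 96410001 and 6 lay within Skap1 between 96530001 and 96575000. At the intergenic bin Hoxb4 stood apart, with a ratio of 5.27 (4.58 to 6.03) against 2.73 (1.98 to 3.68) for Hoxb8, 2.56 (1.77 to 3.58) for Hoxb3 and 2.16 (1.51 to 2.98) for Hoxb6. At 96540001 the ratio was 7.40 (6.00 to 9.02) for Hoxb4 and 6.03 (4.15 to 8.47) for Hoxb7, against 3.01 (1.78 to 4.75) for Hoxb8 and 2.99 (1.77 to 4.73) for Hoxb6. The order turned in the bins 10 and 15 kb further on. At 96550001 Hoxb8 led with 7.85 (5.93 to 10.2) and Hoxb4 had 3.53 (2.66 to 4.60), and at 96555001 Hoxb7 led with 7.61 (5.63 to 10.1) and Hoxb4 had 2.99 (2.19 to 3.99). In these last 2 bins the intervals of Hoxb4 and of the leading gene did not overlap.

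In the remaining 3 shared bins the genes lay closer together. At 96535001 Hoxb6 had a ratio of 5.59, Hoxb8 5.26, Hoxb4 4.02 and Hoxb7 3.14. At 96530001 Hoxb6 had 5.14, Hoxb4 5.13, Hoxb8 3.02 and Hoxb3 2.94. At 96570001 all 4 ratios lay between 2.33 and 3.54, and all intervals overlapped.

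**Figure D3:**
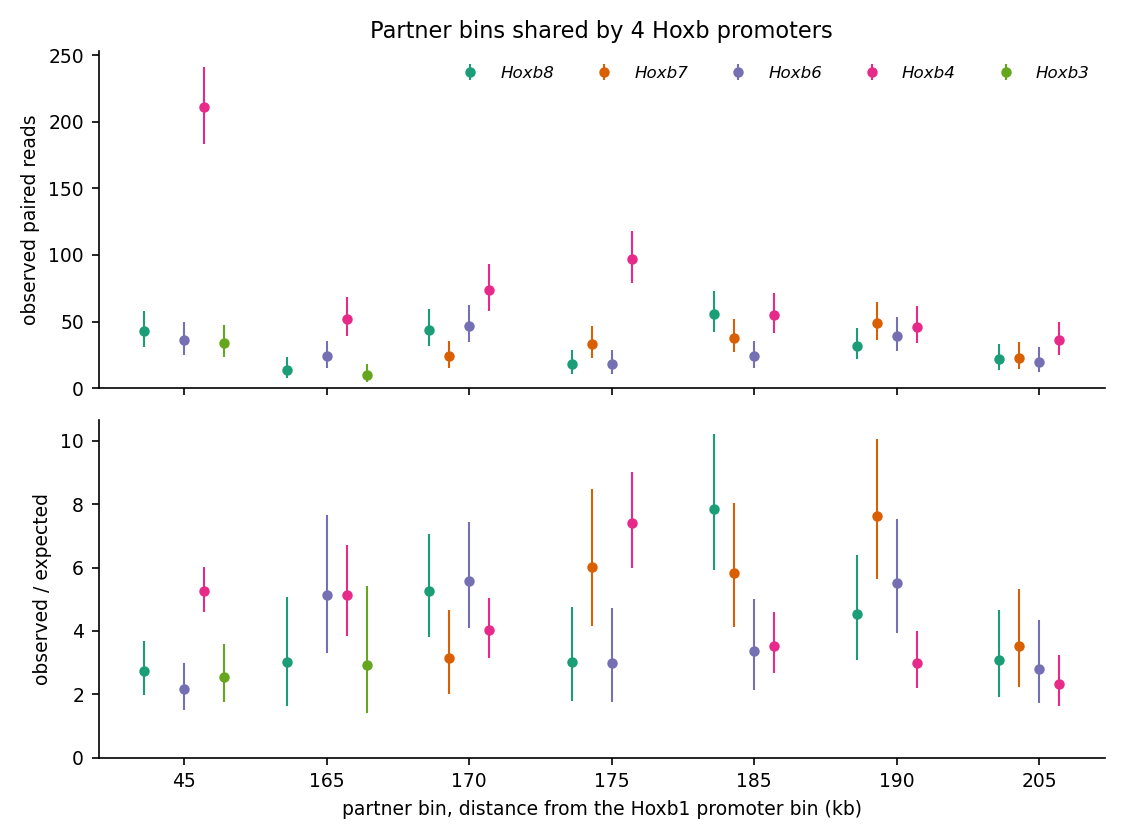
Observed paired reads (upper panel) and ratio of observed to expected (lower panel) in the 7 partner bins reached by 4 Hoxb promoters, placed by their distance in kb from the Hoxb1 promoter bin; points are values of the merged list and bars are 95% exact Poisson intervals. Hoxb4 has the highest count in 5 of the bins, while the highest ratio passes from Hoxb4 at 175 kb to Hoxb8 at 185 kb and Hoxb7 at 190 kb.

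Whether Hoxb4 led depended on the quantity. In the 13 bins it shared with Hoxb8, the count of Hoxb8 was higher in 2 and its ratio in 9. The expected count of Hoxb4 in those bins was a median of 2.18 times that of Hoxb8. With Hoxb7 the same held, its count being higher in 1 of 12 bins and its ratio in 8, at an expected count 2.39 times higher for Hoxb4. Intervals of the ratio were apart in 3 of the 13 bins shared with Hoxb8, with Hoxb8 higher in 1 and Hoxb4 in 2, and in 2 of the 12 shared with Hoxb7, where Hoxb7 was higher. The part of the model's expected count in this order was not tested.

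**Figure D4:**
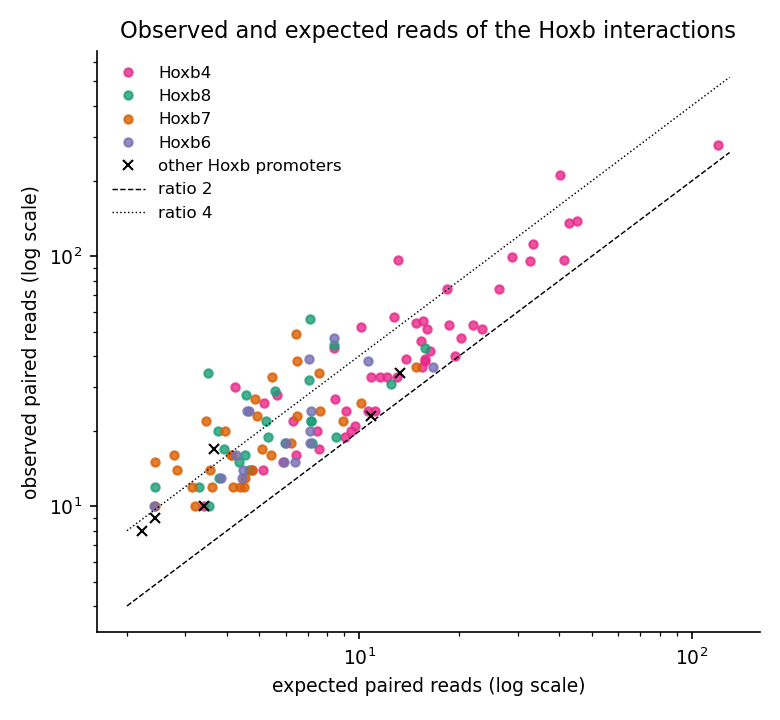
Observed against expected paired reads of the 128 Hoxb interactions, both on a log scale, coloured by promoter; dashed and dotted lines mark ratios of 2 and 4. Hoxb4 fills the upper right, up to 278 observed and 120 expected, while points of Hoxb8 and Hoxb7 lie at lower expected counts and reach the same or higher ratios.

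Set by distance, the Hoxb ratios were near those of the whole list. The median count was 99 paired reads for Hoxb against 76 for the list up to 100 kb, and 37 against 31 at 100 to 200 kb. It was 30.5 against 23 at 200 to 300 kb, 17.5 against 18 at 300 to 500 kb and 15 against 14 beyond. Between 200 and 300 kb the median ratio was 3.54 over 38 Hoxb interactions and 3.27 over the list, and Hoxb8 had 4.06, Hoxb7 3.73, Hoxb4 3.53 and Hoxb6 3.18. Between 500 and 1000 kb it was 3.60 over 27 interactions and 4.31 over the list. The ratio of 9.72 for Hoxb8 with Cbx1, at 520 kb, had a lower bound of 6.73, beside the list median of 4.31. It was picked as the highest Hoxb ratio, and its interval does not allow for that choice. Setting it beside a median therefore cannot show whether it was unusual. Hoxb7 was paired with the same Cbx1 bin at 515 kb, with 10 paired reads. Its ratio there was 3.12, with an upper bound of 5.74. The part of distance in the high ratio of Hoxb8 was not tested.

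The few interactions off the Hoxb1 side were of mixed strength. Hoxb7 reached a bin over an exon of Igf2bp1, an RNA-binding protein gene, at 95955001 to 95960000, with 20 paired reads and a ratio of 5.06 (3.09 to 7.82). Hoxb6 reached an exon of Ttll6, a tubulin-modifying enzyme gene, at 96145001 to 96150000 with 38 paired reads and a ratio of 3.57 (2.53 to 4.90). Hoxb4 reached an intron of Fam117a 965 kb away with 10 paired reads and a ratio of 2.94 (1.41 to 5.40). The interaction within the cluster joined Hoxb4 to an intron of Hoxb3 20 kb away, at 96335001 to 96340000. With 278 paired reads (246 to 313) against 120 expected it had the highest count of all Hoxb interactions and a ratio of only 2.31 (2.05 to 2.60).

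The 83 partner bins were set beside all bins of the chromosome for sequence features. They held a median of 12 GATC sites (6 to 23), as did all 23748 chromosome 11 bins. The core consensus of CTCF, a DNA-binding protein of chromatin loops, was searched on both strands. It was found in 6 of the 83 bins (7.23%), against 6.08% of all chromosome 11 bins. With 1 fixed letter fewer the shares were 39.8% and 30.1%. Among the 7 bins shared by 4 promoters, 1 held the full core consensus, the Skap1 bin at 96530001, on the plus strand. The sequence GAGGAAGT, the core bound by the macrophage factor PU.1, was found in 28 (33.7%), against 27.2% of chromosome 11 bins, and in 16 of the 39 partner bins over Skap1 (41.0%). It was added after the data had been seen. The matches in the shared bins are shown because these bins were each reached by 4 Hoxb promoters, in mm10, 5′ to 3′ on the strand named, with the motif in capitals.
CTCF, chr11:96533097-96533126, plus: ccagtatgcCCATCAGGAGGCtcacaaccg
GAGGAAGT, chr11:96410598-96410627, minus: cacggtccactGAGGAAGTgggagccaggg
GAGGAAGT, chr11:96551405-96551434, minus: atttattgtacGAGGAAGTcatcactatta
GAGGAAGT, chr11:96557809-96557838, plus: cagtccctcttGAGGAAGTtaggtgtctat
The GAGGAAGT matches lay in 3 of the 7 shared bins, and the other 4, among them the Skap1 bin at 96540001 where Hoxb4 led, held no match. A match describes letters in a bin, and binding was not measured in these files.

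The genes with the most similar partner bins were neighbours beyond Skap1. Lrrc46 and Mrpl10, which share promoter bins, had 10 of their 54 partner bins in common with the 83 of Hoxb (Jaccard index 0.0787). Scrn2 had 5 of 9 (0.0575) and Osbpl7 5 of 21 (0.0505). The index is limited by the number of bins of a gene, since each gene was set against the pooled bins of all Hoxb promoters.

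The 3 other Hox clusters were set beside Hoxb, with the same rule and no test. Promoters of Hoxa on chromosome 6 had 171 interactions, those of Hoxc on chromosome 15 had 19 and those of Hoxd on chromosome 2 had 7. Partners on the side of the lowest-numbered gene made up 70.2% in Hoxa (62.7 to 76.9%), 96.9% in Hoxb, 94.7% in Hoxc (74.0 to 99.9%) and 85.7% in Hoxd (42.1 to 99.6%). These intervals take bin pairs as independent, and with 1 interaction kept per cluster of neighbouring pairs the share in Hoxb was 15 of 19 (78.9%). The same share was not computed for Hoxa, Hoxc and Hoxd, so the clusters are set side by side on dependent bin pairs only. Hoxa4 led its cluster with 72 interactions, as Hoxb4 led Hoxb, while Hoxc9 led Hoxc with 10 and Hoxd9 and Hoxd10 had 2 each. Skap2, the paralogue of Skap1 that neighbours Hoxa, held partner bins of 28 Hoxa interactions (16.4%) at ratios of up to 5.42, against 70 (54.7%) for Skap1 and Hoxb. Skap1 is the longer gene, at 96464593 to 96759130 against 51857422 to 52012549 for Skap2, and the shares were not adjusted for length. Unlike Skap1, Skap2 had interactions at its own promoter, 30 in number.

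**Figure D5:**
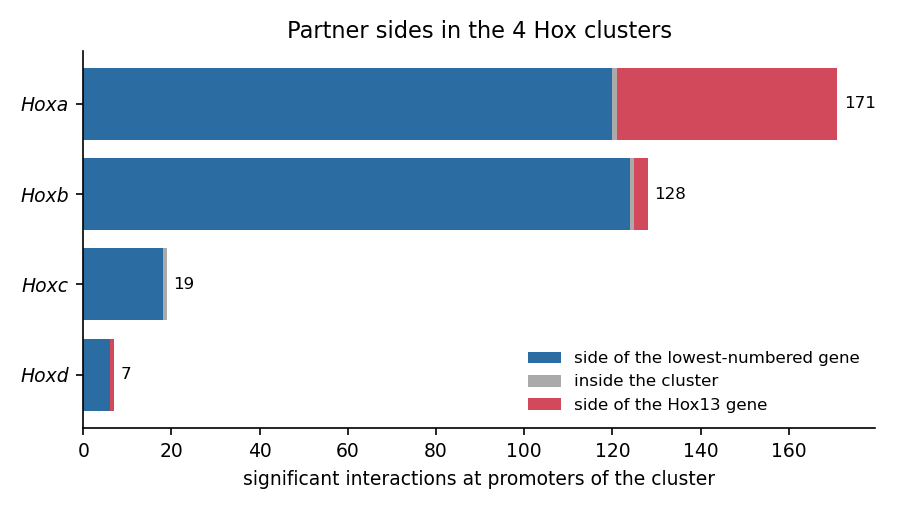
Number of interactions at the promoters of each Hox cluster (horizontal axis), with bar segments for partner bins beyond the lowest-numbered gene, inside the cluster and beyond the Hox13 gene. Hoxa has 50 interactions on the Hox13 side, whereas Hoxb has 3 of 128.

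Among 35 Hox cofactors and regulators, chosen with earlier results of these data known, 33 were in the autosomal annotation. Of these 33, 29 had at least 1 interaction, with a median of 5, against 63.2% and a median of 2 over all genes. Jarid2, Bmi1 and Eed, of the Polycomb complexes that keep Hox genes silent, led with 158, 124 and 86, while Ezh2, of the same complexes, had 2. Of the HOX partner genes of the Meis family, Meis1 had 48, Meis2 had 2 and Meis3 had 1. As a check of the cells, all 10 macrophage marker genes had interactions (median 12), against 4 of 10 for T cells, 4 of 8 for B cells, 6 of 8 for neutrophils and 4 of 8 for stromal cells, whose medians were 0 to 2. A promoter contact is not expression, and RNA was not measured in these files.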

How the data were processed

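H3K4me3 HiChIP was measured in 4 samples of BMDMs, grouped by their titles into basal and IL-4-treated. Bowtie2, bedtools and mm10 are named in the submitters' processing notes. According to the study's methods, reads of the 4 samples were merged and bin pairs of 5000 bp were called by the authors with MAPS, anchored on H3K4me3 ChIP-seq peaks. The authors' deposited list gives, for each significant bin pair, an observed count of paired reads, an expected count of the MAPS model (a modelled signal) and a false discovery rate, an adjusted p-value whose values were below 0.01. The model corrects for distance, restriction sites, GC content, mappability and enrichment, so each ratio depends on how well it describes the locus. A cluster score deposited by the authors, the −log10 p summed over each cluster, was not used.

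Ratios were observed over expected, with 95% exact Poisson intervals of the count and expected taken as fixed; shares have exact Clopper-Pearson intervals. Both cover counting error only. Distances are between bin starts, counted from 1. No test was run, since the list is pooled. Genes named were all members, every gene with a TSS in a partner bin, the 5 most overlapped gene bodies, the 5 highest ratios and counts on each side, the 5 genes most similar by Jaccard index, and the leading members of each list; Ezh2 and the Meis genes were picked with their values in view. Some results that this rule selects are not reported here. Members and lists were chosen with earlier results of these data known. Interval and counting steps were tested on simulated data. Python 3.11.15, numpy 2.4.6, pandas 2.3.3, scipy 1.17.1 and matplotlib 3.10.9 were used.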

Additional observations from a re-analysis of the deposited data

How the results depend on the processing

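The 128 Hoxb interactions became 50 at FDR under 1e-06, 78 at counts of at least 20, 37 at ratios of at least 4 and 19 with 1 per cluster. Partners beyond Hoxb1 (124) became 47, 75, 36 and 15 in the same order. Those beyond Hoxb13 (3) became 1 at ratios of at least 4, 1 without clusters of 1 pair and 5 with a TSS within 2500 bp. Interactions within the cluster (1) became 0, 0 and 2 in that order, and 2 with TSSs of any biotype. The median per gene (2) became 0, 1, 0.5, 1 and 4 with FDR, counts, ratios, 1 per cluster and 2500 bp. The share beyond Hoxb1 stayed between 78.9 and 99.2%. Hoxb4 led under 5 of 7 alternatives. At ratios of at least 4, Hoxb7 had 12, Hoxb8 10 and Hoxb4 9. Within 2500 bp Hoxb8 and Hoxb7 had the same 55 interactions, each being given the other's TSS bin, and Hoxb4 had 53. Per gene, 38 of 70 values stayed within 1.5 times the reported one and 32 did not. The 38 include every value of Hoxb13 and Hoxb9, which had 0 throughout. A stricter limit could not have changed a value of 0. Limits of 500 kb and the PU.1 sequence were chosen after seeing the data; up to 500 kb there were 101 interactions, 98 beyond Hoxb1. A CTCF consensus with 1 fixed letter fewer was found in 39.8% of partner bins and 30.1% of chromosome 11 bins. The stricter limits keep fewer pairs by construction, and the wider TSS window adds neighbouring bins by construction. The cause of the other changes was not tested.

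No paired analysis was possible because the list is merged over all 4 samples and has no columns per replicate; leaving out replicates was not possible for the same reason. Depth per sample is unknown.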

Other observations

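Other bins of the Hoxb cluster had contacts mostly on the same side as the promoters. Of the 24 bins without a Hoxb TSS, 10 had at least 1 interaction. Over all 36 bins there were 175 interactions, of which 165 had a partner beyond Hoxb1, 8 beyond Hoxb13 and 2 joined bins inside the cluster. These totals include the 128 interactions of the promoters, of which 124 lay beyond Hoxb1 and 3 beyond Hoxb13. The bin at 96310001 to 96315000, next to that of Hoxb4, had 21 interactions, 20 of them with partners beyond Hoxb1, with 505 paired reads and a highest ratio of 6.36. Near the Hoxb13 end, the bins starting at 96200001 and 96205001 had 8 interactions each. Of these, 5 and 8 had partners beyond Hoxb1, and the highest ratios were 9.15 and 7.64. The bin of Mir196a-1, a microRNA gene between Hoxb13 and Hoxb9, had 0.

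Of all listed interactions, 40 spanned the whole cluster without ending in it, at 585 to 990 kb, with a median count of 12.5 and a median ratio of 4.59. The strongest joined 96015001 to 96020000 with 96830001 to 96835000, 815 kb apart, with 32 paired reads against 2.63 expected, a ratio of 12.2 (8.31 to 17.2).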
